A study of Rattus norvegicus with 32 samples.

Results

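The collagen genes of the rat were followed in 4 brain regions of animals given METH (methamphetamine) or saline (Sal). Members were the gene names of the form Col, number, a, number in the count tables that held 100 or more reads over the 32 samples. Of 28914 gene names, 43 had this form and 41 were kept. Col1a2, which encodes the second chain of type I collagen, held 5 reads over the 32 samples, and Col23a1 held 0, so neither was kept. Col1a1, the first chain of type I collagen, held 8958 reads, so the count of Col1a2 is not read here as absent expression. The gene model of Col1a2 used for counting was not tested. The rule used only the summed count, and no difference between groups entered it.

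The regions were the SVZ (subventricular zone, a neurogenic niche along the lateral ventricle), the NAc (nucleus accumbens, in the ventral striatum) and, from the hippocampus, the DG (dentate gyrus) and the CA (Ammon's horn). Adult male Sprague-Dawley rats had 4 intraperitoneal injections of METH at 10 mg/kg, or of saline, spaced 2 h apart. Tissue was collected 24 h after the final injection, and total RNA depleted of ribosomal RNA was sequenced. Each of the 8 groups (NAc, DG, CA and SVZ, each with METH or saline) held 4 samples. A sample is called by its group and number, as in NAc METH 4. All animals shared the strain, sex and adult stage. The labels do not say which samples came from the same animal, so p-values measure the spread between these samples.

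Collagens are secreted proteins built of 3 chains wound around each other. Each chain has its own gene. Fibrillar collagens form the fibrils of connective tissue and, in the brain, are best known from the meninges and the outer wall of larger vessels. Type IV collagen forms the network of the basement membrane around every brain capillary, where the Col4a1 and Col4a2 chains assemble together. FACIT collagens lie on the surface of fibrils, transmembrane collagens are anchored in the cell membrane, and several of both classes are made by neurons. Col25a1, for example, is known for its role in motor axon targeting and for its presence in amyloid plaques. Multiplexins (Col15a1, Col18a1) sit in vascular basement membranes, and Col8a1 and Col8a2 form a short-chain network that is known from the endothelial layer of the cornea.

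Total counts ran from 11094002 to 21869773 reads, with a median of 14533166.5, and after upper-quartile scaling to CPM, counts relative to library size, 1 read was worth 0.0460 to 0.0940 CPM. The 11 choroid plexus markers, led by Ttr, summed to 2322 to 8687 CPM in 4 libraries (SVZ METH 3, DG METH 3, DG Sal 4 and CA Sal 2) and to at most 412 CPM in the other 28. Striatal medium spiny neuron markers, which should mark the NAc, summed to 1785 to 9413 CPM in 7 NAc libraries but to 288 CPM in NAc METH 3, and they reached 2098 CPM in DG Sal 3 and 6650 CPM in SVZ Sal 3. Dentate granule markers did not set the DG apart, with 182 to 599 CPM there and 144 to 592 CPM in the other regions. Thalamic markers summed to 1542 to 2599 CPM in SVZ Sal 1, SVZ METH 2 and SVZ METH 4 and to at most 672 CPM elsewhere. In the file headers, DG Sal 1 and 2 carry the library numbers that METH libraries carry in the NAc and CA, DG METH 1 and 2 carry saline numbers, and SVZ METH 1 and 2 share a number, as do SVZ METH 3 and 4. Fits were run without the choroid plexus-rich and without the crossed-number libraries, while other libraries were left out only 1 at a time. Sequencing run was inferred from how the libraries are named in the headers, which do not call it so. Among CA saline, 2 libraries named as merged were given a level of their own. The study states 2 sequencing batches, which were not matched to these names. All 8 SVZ libraries came from a run that holds no other region. In the NAc and the DG only 1 run held both treatments. It held 2 saline (Sal 3 and 4) and 2 METH libraries (METH 1 and 2) in the NAc. In the DG it held 1 saline (Sal 3) and 2 METH libraries (METH 1 and 2). With run as a factor, the METH effect in these regions rests on those libraries alone. The samples are bulk tissue, so a change in the number of cells of a type and a change in RNA per cell cannot be told apart.

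The start sites of the type IV genes are printed first, because these genes lie in head-to-head pairs and the levels of each pair are set side by side below. RefSeq promoter windows (GRCr8, 250 bases before to 50 after the start) matched 32 of the 41 members by symbol. The 9 without a window were Col1a1, Col2a1, Col3a1, Col6a2, Col9a3, Col12a1, Col14a1, Col22a1 and Col25a1. In this build the starts of Col4a1 and Col4a2 lay 77 bases apart on opposite strands, and those of Col4a3 and Col4a4 lay 413 bases apart. The 4 stretches that follow are printed 5′ to 3′ on the plus strand. They are the bases between the starts of Col4a1 and Col4a2 (chr16:84885521-84885596), the 250 bases before the start of Col4a3 (chr9:91323740-91323989), and those before Col8a1 (chr11:56246532-56246781) and Col8a2 (chr5:143870519-143870768), which are shown because both were high in the same libraries. Capitals mark the GC box GGGCGG or its complement, some of which overlap.
Col4a1 and Col4a2: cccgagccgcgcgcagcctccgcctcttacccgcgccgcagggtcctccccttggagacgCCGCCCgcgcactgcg
Col4a3: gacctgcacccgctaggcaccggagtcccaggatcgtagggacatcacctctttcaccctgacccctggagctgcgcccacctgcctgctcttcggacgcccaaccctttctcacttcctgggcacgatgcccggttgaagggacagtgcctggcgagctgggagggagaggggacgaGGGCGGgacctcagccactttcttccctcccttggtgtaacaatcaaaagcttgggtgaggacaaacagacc
Col8a1: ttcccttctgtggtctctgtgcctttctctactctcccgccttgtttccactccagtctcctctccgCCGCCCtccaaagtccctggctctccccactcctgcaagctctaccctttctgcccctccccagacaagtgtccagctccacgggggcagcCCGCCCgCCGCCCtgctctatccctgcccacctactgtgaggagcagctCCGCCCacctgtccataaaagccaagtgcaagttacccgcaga
Col8a2: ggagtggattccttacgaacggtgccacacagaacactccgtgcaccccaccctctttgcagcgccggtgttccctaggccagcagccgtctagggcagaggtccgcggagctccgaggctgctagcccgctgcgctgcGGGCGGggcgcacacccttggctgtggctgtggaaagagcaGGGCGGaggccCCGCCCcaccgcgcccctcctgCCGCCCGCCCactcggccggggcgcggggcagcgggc

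On either strand, the stretch shared by Col4a1 and Col4a2 held 1 GC box, that of Col4a3 held 1, that of Col8a1 held 4 and that of Col8a2 held 5. Of the 35 windows of the 32 matched members, 19 (54.3%) held a GC box before the start, against 30.5% of the 33469 windows in the table. The members' windows are not all separate. Those of Col4a1 and Col4a2 share 176 bases and those of Col4a3 and Col4a4 share 88, and Col24a1 and Col6a5 have more than 1 window each. Some boxes are therefore counted more than once. A CCAAT box (CCAAT, both strands) stood in 31.4% of the members' windows and 34.0% of all windows, and TATAAA in 8.57% and 12.9%. These matches are descriptions of the letters and were not tested.

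Levels between genes are compared per length, as RPKM (CPM divided by gene length in kilobases). The 41 members took between 0.0409% and 0.116% of the reads of a sample, with a median of 0.0567%, and 8 of them held 58.3% of the 307518 collagen reads. Mean RPKM over the 32 samples was 1 or more for 25 members and under 0.1 for 3 (Col28a1, Col15a1 and Col6a4). A library at 0 occurred for 4 members (Col6a5, Col22a1, Col15a1 and Col6a4). By summed RPKM the fibrillar genes led with 33.6% of the collagen total on average, followed by the FACIT genes (19.9%), the transmembrane genes (19.3%) and the basement membrane network (15.4%).

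**Figure D1:**
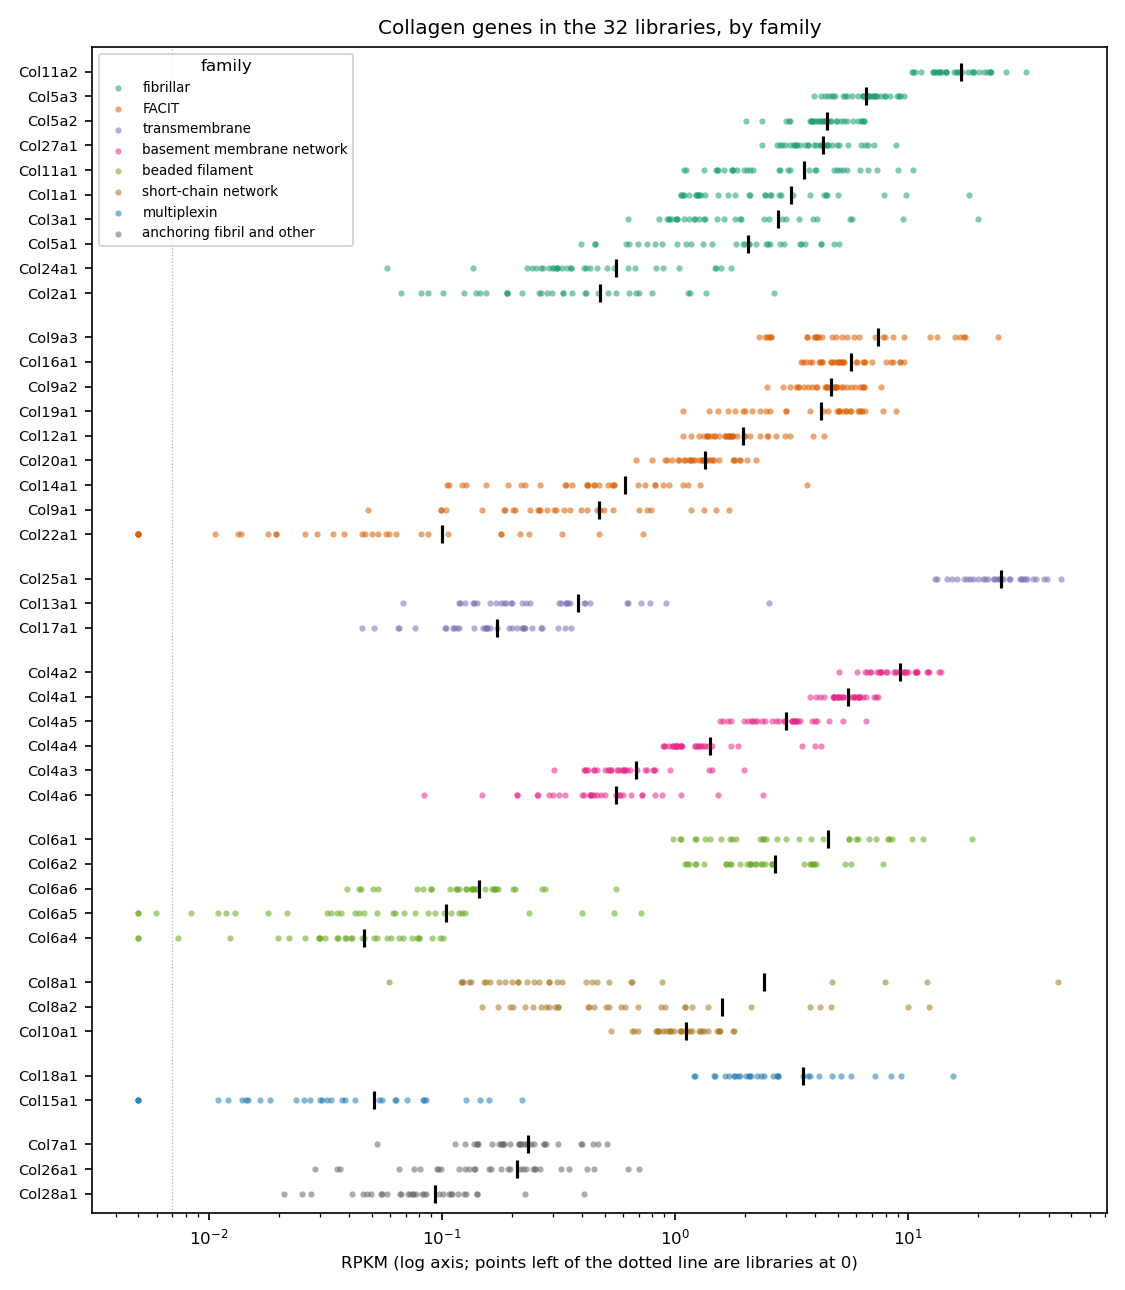
Level of each of the 41 collagen genes in RPKM (log axis, 1 point per library, black bar at the mean of 32), grouped by family. Col25a1 had the highest mean (25.1 RPKM) and Col6a4 the lowest (0.0466 RPKM), while most points of Col8a1 lie below its mean, which 4 libraries carry.

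The most abundant member per length was Col25a1 (chromosome 2, 235596123 to 235715057, plus strand, rn6), with a mean of 25.1 RPKM and a range of 13.0 to 45.2. Second was Col11a2 (chromosome 20, 3830164 to 3859018, plus strand, rn6), a chain of fibrillar type XI collagen known from cartilage and the inner ear, at 16.8 RPKM (10.4 to 31.98). Then came Col4a2 at 9.20 RPKM (5.07 to 13.8), Col9a3, a FACIT chain of type IX collagen, at 7.43 RPKM (2.29 to 24.2), Col5a3, a minor fibrillar chain, at 6.57 RPKM (3.93 to 9.59), and Col16a1, another FACIT gene, at 5.68 RPKM (3.48 to 9.59). Type I and III collagen, the main fibrillar collagens of connective tissue, were lower, with means of 3.13 RPKM for Col1a1 and 2.77 RPKM for Col3a1.

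Members also differed in how evenly they were spread. Col4a1 varied least over the 32 libraries (coefficient of variation 16.7%), with 25.1 to 49.0 CPM. Col8a1 varied most (333%). Its highest library, DG Sal 4, held 46.4% of its reads and lay at 191 CPM, 173 times the median library. For 14 members, among them the fibrillar genes Col1a1, Col3a1, Col5a1 and Col24a1, DG Sal 4 was the highest of the 32 libraries.

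The effect of METH was then asked in each region, with a gene called when its FDR was under 0.01 and its fold change above 1.5. No collagen gene passed in any region, and no other gene did either. In the NAc 0 of 34 members tested and 0% of 14771 genes were called. In the DG these were 0 of 36 and 0% of 14800. In the CA 0 of 35 members and 0% of 14612 genes were called, and in the SVZ 0 of 36 and 0% of 15579. The lowest FDR of a member was 0.999 in the NAc, 0.239 in the DG, 0.681 in the CA and 0.979 in the SVZ, by edgeR's quasi-likelihood test. The values below are therefore given for the members with the lowest unadjusted p, and none of them is a call.

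**Figure D2:**
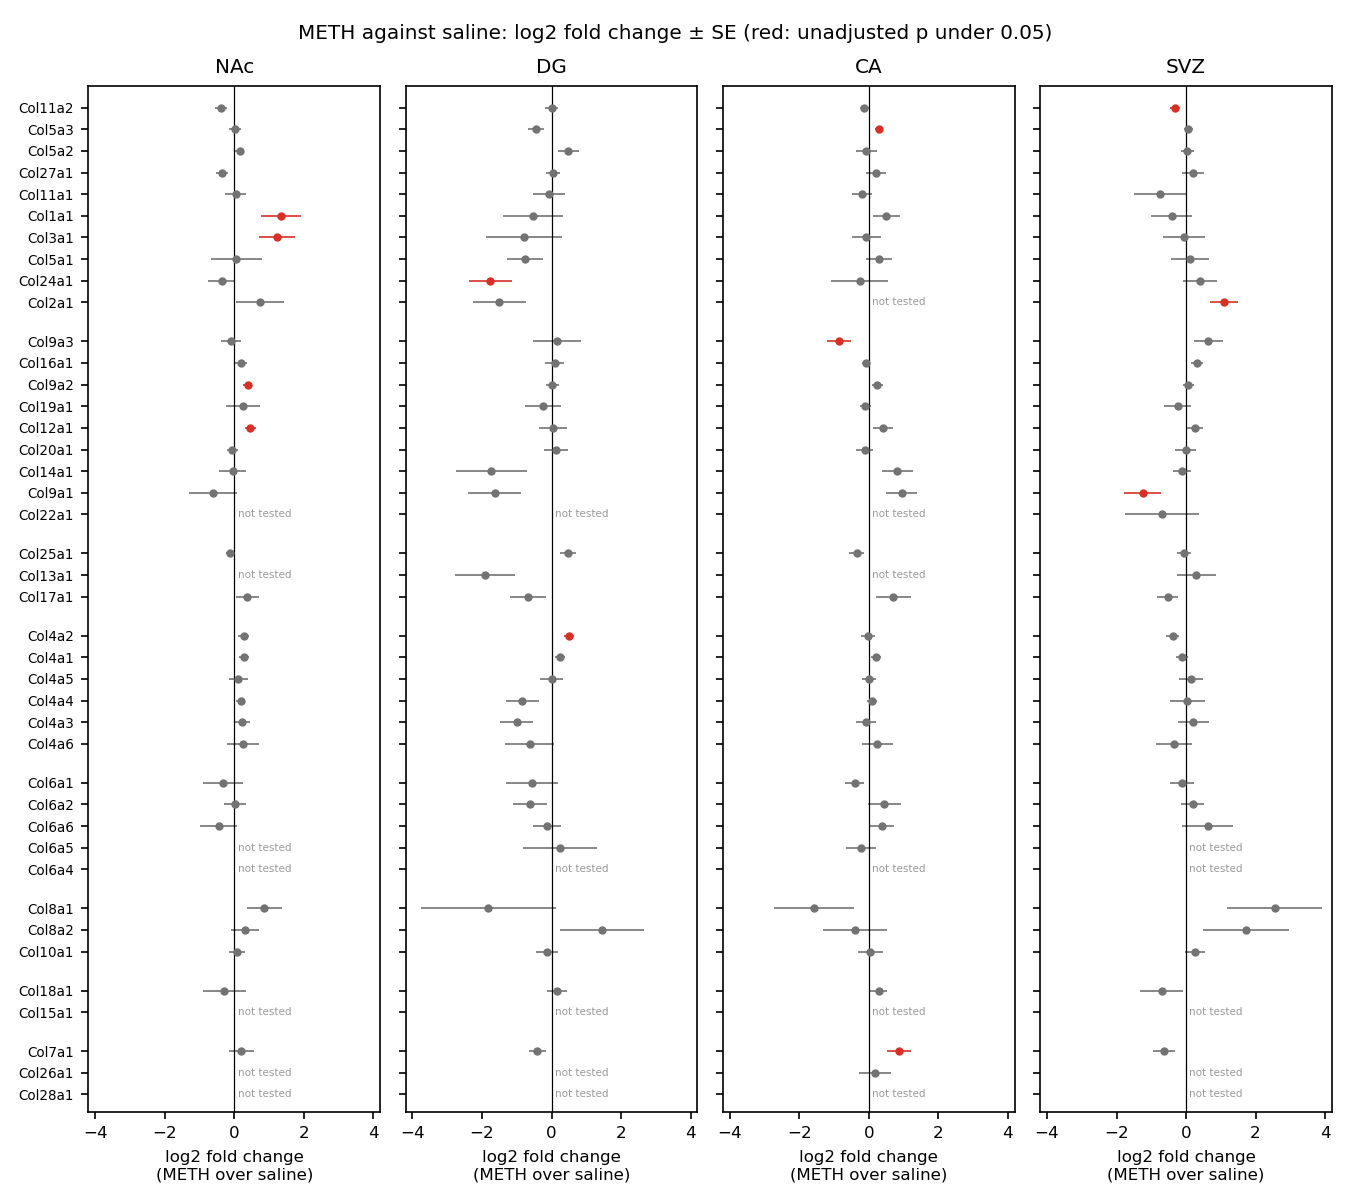
log2 fold change of METH over saline with its standard error for each collagen gene in the 4 regions, in the order of the families. Points in red have an unadjusted p under 0.05, which holds for 4 genes in the NAc, 2 in the DG, 3 in the CA and 3 in the SVZ, and none passed an FDR of 0.01.

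In the NAc, 4 of the 34 members tested had an unadjusted p under 0.05 and were higher in METH, beside 2.42% of all genes, and 0 were lower, beside 0.968%. They were 2 FACIT genes, Col9a2 and Col12a1, and 2 fibrillar genes, Col1a1 and Col3a1. Over the 34 members the median log2 fold change was 0.13, against 0.03 over all genes tested, and 23 of 34 were above 0. Without a given library the number of members with an unadjusted p under 0.05 lay between 1 and 7. With the sequencing run as a factor the median log2 fold change was -0.08. That fit takes the METH effect from NAc Sal 3 and 4 and NAc METH 1 and 2 only, so NAc METH 3 and 4 do not enter it. In it none of the 4 kept such a p. The log2 fold change was 0.20 for Col9a2 (unadjusted p = 0.235), 0.24 for Col12a1 (unadjusted p = 0.353), 0.17 for Col1a1 (unadjusted p = 0.750) and 0.16 for Col3a1 (unadjusted p = 0.776), and the 1 member under 0.05 was Col11a2, which was lower (-0.62 ± 0.24, unadjusted p = 0.0382).

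Col9a2, the second chain of type IX collagen, stood at 14.3, 12.0, 13.4 and 14.0 CPM in the 4 saline samples. The METH samples read 16.8, 14.5, 18.8 and 19.2 CPM, so the groups did not overlap, as held in this direction for 2 of the 41 members and 1.54% of the 17249 genes with 100 or more reads. Its log2 fold change was 0.38 ± 0.12 (SE; unadjusted p = 0.0111, FDR 0.999).

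Col12a1, a long FACIT collagen of tendon and other fibril-rich tissue, read 12.4, 15.6, 13.5 and 17.4 CPM in saline. Its METH samples read 18.5, 17.7, 18.1 and 26.3 CPM. Every METH sample was above every saline sample here too, and NAc METH 4 lay apart from the other METH samples. The log2 fold change was 0.47 ± 0.17 (unadjusted p = 0.0219, FDR 0.999).

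Col1a1 (chromosome 10, 82745801 to 82762789, plus strand, rn6) read 7.39, 8.95, 6.18 and 7.34 CPM in saline and 7.33, 7.83, 14.2 and 45.7 CPM in METH. Its METH samples 1 and 2 lay among the saline samples and only METH 4 was far above them. Col3a1 had the same shape, with 5.73, 4.81, 4.62 and 4.84 CPM in saline and 6.02, 4.47, 8.63 and 26.9 CPM in METH. The log2 fold changes were 1.35 ± 0.57 for Col1a1 (unadjusted p = 0.0426) and 1.23 ± 0.53 for Col3a1 (unadjusted p = 0.0459), with an FDR of 0.999 for both. Without NAc METH 4 the log2 fold change of Col1a1 was 0.40. The 15 leptomeningeal fibroblast markers summed to 40.9 to 49.5 CPM in NAc saline, to 41.9 to 76.6 CPM in METH 1 to 3 and to 233 CPM in METH 4. Of the 11 markers tested in this comparison 4 were higher at an unadjusted p under 0.05, with Ogn, a defining marker, at 0 in 27 of the 32 libraries. Their part in the result was not tested.

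In the DG, 1 of the 36 members tested was higher at an unadjusted p under 0.05, beside 6.35% of all genes, and 1 was lower, beside 6.42%. These shares are no larger than the background. The median log2 fold change was -0.19 over the members and -0.01 over all genes.

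Col4a2 (chromosome 16, 83387364 to 83438561, minus strand, rn6) had the lowest p of any member in the 4 METH comparisons. In DG saline it read 49.5, 37.8, 40.0 and 34.2 CPM, and in DG METH 59.6, 48.0, 53.8 and 67.2 CPM. All METH samples but the second were above the highest saline sample. The log2 fold change was 0.50 ± 0.15 (unadjusted p = 0.00812, FDR 0.239). Without the 4 libraries whose numbers cross the treatments it was 0.70 ± 0.19 (unadjusted p = 0.0217), and without DG Sal 4 and DG METH 3 it was 0.46 ± 0.17 (unadjusted p = 0.0288). With the sequencing run as a factor it was 0.42 ± 0.28. That fit sets DG Sal 3 alone against DG METH 1 and 2, which are among the crossed-number libraries. DG Sal 3 also carried 2098 CPM of striatal markers. Col4a1, the partner chain of Col4a2, read 42.3, 34.8, 31.8 and 33.0 CPM in saline and 38.6, 34.2, 47.9 and 46.9 CPM in METH, groups that overlap.

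The other members at the top of the DG comparison had a few CPM only. Col24a1, a fibrillar gene, read 3.60, 6.03, 1.27 and 7.07 CPM in saline and 0.553, 2.74, 1.08 and 0.942 CPM in METH. Saline sample 3 lay among the METH samples. The log2 fold change was -1.76 ± 0.62 (unadjusted p = 0.0214, FDR 0.302). It was -2.03 without the crossed-number libraries. With the sequencing run as a factor, which sets DG Sal 3 alone against DG METH 1 and 2, it was 0.36. Col13a1, a transmembrane collagen of the neuromuscular junction, read 0.862, 6.73, 0.318 and 1.15 CPM in saline and 0.492, 0.361, 0.939 and 0.503 CPM in METH. Its saline mean rested on DG Sal 2 and the groups overlapped (log2 fold change -1.91 ± 0.88, unadjusted p = 0.0585, FDR 0.415).

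Of the fibrillar genes, Col1a1 and Col3a1 were each high in a saline and a METH library of the DG. Col1a1 read 12.1, 26.2, 6.67 and 107 CPM in saline and 56.7, 16.5, 22.0 and 10.6 CPM in METH. Col3a1 read 5.80, 18.5, 4.07 and 94.7 CPM in saline and 45.3, 5.20, 16.3 and 4.40 CPM in METH. In both genes the highest libraries were DG Sal 4 and DG METH 1. The leptomeningeal fibroblast marker sum was 518 CPM in DG Sal 4, 756 CPM in DG METH 3, 230 CPM in DG METH 1 and 40.4 to 177 CPM in the other DG libraries.

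In the CA, 2 of 35 members were higher at an unadjusted p under 0.05, beside 4.37% of all genes, and 1 was lower, beside 2.79%. Col7a1, the collagen of anchoring fibrils in the skin, read 1.65, 1.30, 0.485 and 1.15 CPM in saline and 1.67, 1.97, 2.53 and 2.27 CPM in METH. The groups did not overlap, although the lowest METH sample and the highest saline sample lay next to each other. In this direction that held for 1 of the 41 members and 2.53% of the 17249 genes. The log2 fold change was 0.88 ± 0.34 (unadjusted p = 0.0299, FDR 0.681). Col5a3 read 27.5, 37.0, 28.2 and 29.5 CPM in saline and 32.4, 40.3, 38.6 and 38.7 CPM in METH. Saline sample 2 lay inside the METH range (log2 fold change 0.29 ± 0.11, unadjusted p = 0.0300, FDR 0.681). With the sequencing run as a factor the log2 fold change was 1.41 ± 0.41 for Col7a1 (unadjusted p = 0.0112). For Col5a3 it was 0.38 ± 0.15 (unadjusted p = 0.0380), with an FDR of 0.891 for both. The 5 members with such a p in that fit also held Col4a1 and Col9a2, which were higher, and Col6a1, which was lower.

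Col9a3 was lower in the METH samples of the CA, with 9.60, 17.6, 5.28 and 9.96 CPM in saline and 8.19, 5.05, 5.18 and 4.97 CPM in METH. Saline sample 3 lay inside the METH range, and the highest value was that of CA Sal 2, the choroid plexus-rich library. The log2 fold change was -0.86 ± 0.34 (unadjusted p = 0.0315, FDR 0.686). Without CA Sal 2 it was -0.50, and with the sequencing run as a factor it was -0.34 ± 0.31 (unadjusted p = 0.308). Over all members of the CA the median log2 fold change was 0.05, against 0.01 over all genes.

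In the SVZ, 1 of 36 members was higher at an unadjusted p under 0.05, beside 1.19% of all genes, and 2 were lower, beside 1.39%. Col2a1, the fibrillar collagen of cartilage, read 2.88, 1.19, 1.35 and 1.21 CPM in saline and 2.13, 3.10, 5.29 and 3.61 CPM in METH. Only saline sample 1 reached into the METH range (log2 fold change 1.10 ± 0.40, unadjusted p = 0.0239, FDR 0.979). Col9a1, the first chain of type IX collagen, read 1.51, 6.47, 1.59 and 5.71 CPM in saline and 1.81, 1.34, 2.07 and 1.17 CPM in METH. It was high in saline samples 2 and 4 alone (log2 fold change -1.24 ± 0.53, unadjusted p = 0.0474, FDR 0.979).

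Col11a2 read 143, 137, 202 and 166 CPM in SVZ saline and 141, 133, 121 and 119 CPM in SVZ METH. The ranges touched only between the lowest saline and the highest METH sample (log2 fold change -0.33 ± 0.14, unadjusted p = 0.0498, FDR 0.979). With the METH libraries of each shared number summed, 1 of 38 members tested had an unadjusted p under 0.05 in the SVZ, and with the replicate number as a block 0 of 36 had.

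The average over regions and the interaction below treat all 32 samples as independent. Header numbers recur across regions, however. Same-numbered METH samples of the NAc and CA share theirs, and DG samples 3 and 4 share those of the NAc and CA in both treatments. Averaged over the 4 regions, 0 of 38 members and 0% of 16122 genes were called, with 1 member higher at an unadjusted p under 0.05, beside 4.29% of all genes, and 1 lower, beside 3.54%. The member that was lower was Col11a2 (log2 fold change -0.21 ± 0.09, unadjusted p = 0.0186, FDR 0.567). Its mean was 117 ± 21.7 CPM (SD, n = 4) in NAc saline and 88.8 ± 17.2 CPM in NAc METH. In the same order the DG means were 92.8 ± 14.4 and 92.9 ± 22.5 CPM, the CA means 86.7 ± 12.5 and 79.6 ± 8.68 CPM and the SVZ means 162 ± 29.2 and 128 ± 10.3 CPM. The METH mean was thus the lower in all regions but the DG. The member that was higher was Col9a2 (0.17 ± 0.08, unadjusted p = 0.0403, FDR 0.622). Without the 4 choroid plexus-rich libraries 2 members had such a p, Col12a1 (0.36 ± 0.14, unadjusted p = 0.0188) and Col9a2 (0.18 ± 0.09, unadjusted p = 0.0497), both higher, and Col11a2 was no longer among them.

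Whether the METH effect differed among regions was tested as an interaction over the 32 samples, and 0% of 16122 genes passed an FDR of 0.01. Of 38 members, 3 had an unadjusted p under 0.05, beside 7.74% of all genes. They were Col4a2 (unadjusted p = 0.0150, FDR 0.503), Col7a1 (unadjusted p = 0.0171, FDR 0.523) and Col2a1 (unadjusted p = 0.0229, FDR 0.554). Without the 4 choroid plexus-rich libraries 7 members had such a p.

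For Col4a2 the METH mean was above the saline mean in the NAc (44.7 ± 8.48 against 37.5 ± 5.49 CPM) and the DG (57.1 ± 8.20 against 40.4 ± 6.54 CPM), level with it in the CA (53.0 ± 10.7 against 53.2 ± 12.6 CPM) and below it in the SVZ (33.5 ± 7.89 against 43.9 ± 5.05 CPM). For Col7a1 it was above in the CA (2.11 ± 0.370 against 1.15 ± 0.487 CPM) and below in the SVZ (2.08 ± 0.439 against 3.25 ± 1.21 CPM). For Col2a1 it was above in the CA (1.10 ± 0.542 against 0.455 ± 0.150 CPM) and the SVZ (3.53 ± 1.32 against 1.66 ± 0.818 CPM) and below in the DG (0.826 ± 0.496 against 2.34 ± 2.58 CPM), where DG Sal 3 alone read 6.16 CPM. That library also carried 2098 CPM of striatal markers, and the part of these in the value was not tested.

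The regions were next compared among the 16 saline samples, each against the mean of the other 3, with a call at an FDR under 0.01 and a level more than 2-fold higher. Again 0 of the 37 members tested were called, beside 0% of 15515 genes in the NAc, 0% in the DG, 0.226% in the CA and 0.058% in the SVZ. Differences at an unadjusted p under 0.05 were frequent in all 4, and the 4 contrasts share their samples. The SVZ and its sequencing run cannot be told apart in these contrasts. Saline samples of the NAc and CA with the same replicate number also carried the same header number. DG Sal 3 and 4 carried the numbers of samples 3 and 4 of both. The fit treats all of them as independent.

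In the SVZ, higher at an unadjusted p under 0.05 were 8 of 37 members, beside 16% of all genes, and 1 was lower, beside 9.45%. The FACIT genes made up 5 of the 8 (Col9a2, Col16a1, Col22a1, Col9a3 and Col9a1), out of 9 tested in that family, and the fibrillar genes Col11a2 and Col11a1 and the anchoring fibril gene Col7a1 the rest. Col11a2 was 162 ± 29.2 CPM (SD, n = 4) in the SVZ against 86.7 to 117 CPM in the means of the other regions (log2 difference 0.72 ± 0.13, FDR 0.0156). Its 4 SVZ samples, 143, 137, 202 and 166 CPM, were above all saline samples of the other regions but NAc Sal 1, which read 141 CPM. Col9a2 read 18.3, 15.3, 15.5 and 19.0 CPM, above every other saline sample (highest 14.3 CPM), with a log2 difference of 0.55 ± 0.13 (FDR 0.0297). Among METH samples its mean was 5.87 RPKM in the NAc and 5.98 RPKM in the SVZ, so the SVZ did not stand apart there.

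Col16a1 read 48.6, 27.1, 41.9 and 33.7 CPM in SVZ saline, and its means in the other regions were 23.8 to 25.7 CPM (log2 difference 0.60 ± 0.16, FDR 0.0503). In SVZ METH it lay at 45.1, 48.5, 50.2 and 44.4 CPM, above every METH sample of the other regions (highest 36.7 CPM). Without DG Sal 4 and CA Sal 2, 13 members were higher in the SVZ at an unadjusted p under 0.05 and 1 was lower. Col11a2, Col9a2, Col9a3 and Col16a1 then had an FDR of 0.0343, 0.0396, 0.0453 and 0.0484.

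**Figure D3:**
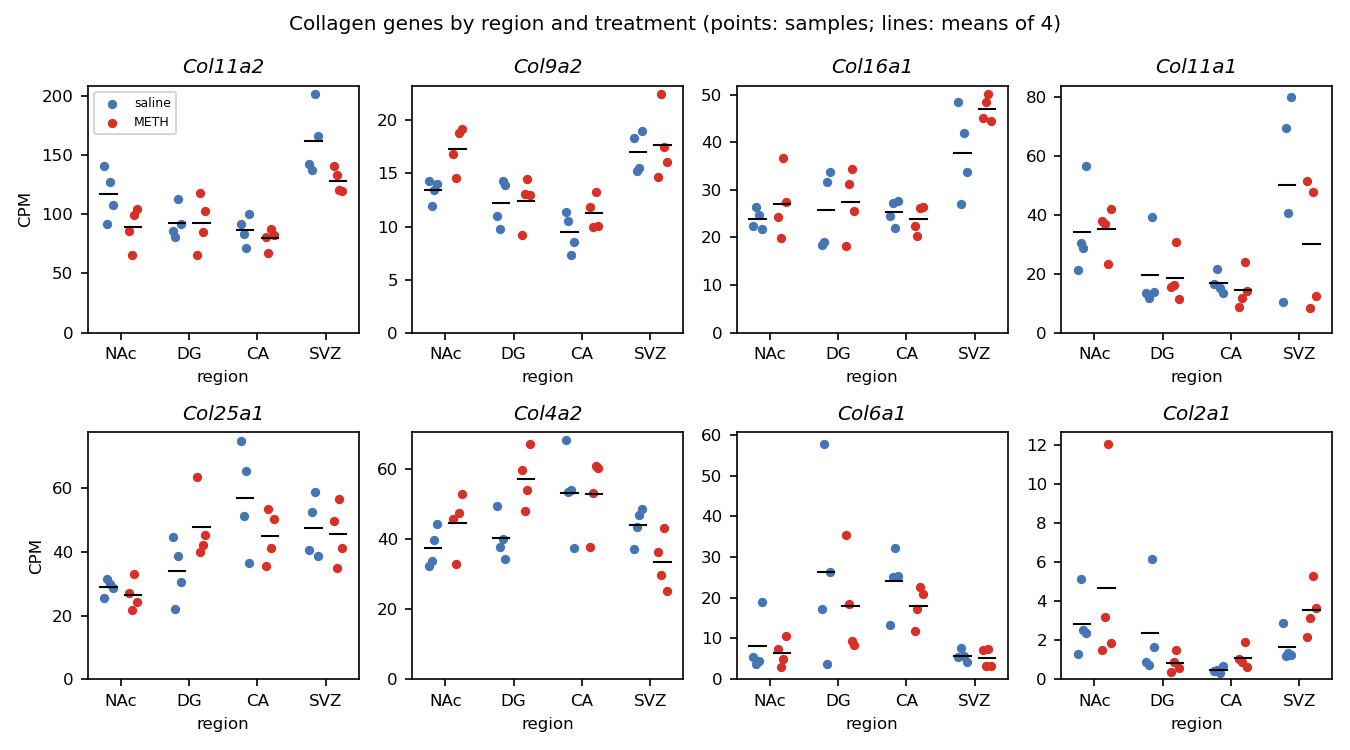
CPM of 8 collagen genes by region and treatment, with 1 point per sample and a line at the mean of 4. In saline, Col11a2, Col9a2 and Col16a1 stand highest in the SVZ, Col25a1 lowest in the NAc and Col2a1 lowest in the CA (0.455 CPM on average). Col6a1 spreads from 3.75 to 57.9 CPM within DG saline. In METH the NAc and SVZ samples of Col9a2 overlap.

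Some SVZ levels moved with the composition of the library. Col11a1, the partner of Col11a2 in type XI collagen, read 10.2, 69.4, 40.5 and 80.2 CPM in SVZ saline and 51.4, 8.43, 47.8 and 12.4 CPM in SVZ METH. The low values were those of SVZ Sal 1, METH 2 and METH 4, the 3 libraries with the highest thalamic marker sums (1542 to 2599 CPM) and with striatal marker sums of 245 to 926 CPM, against 1833 to 6650 CPM in the other 5. Col18a1, the source of the fragment endostatin, read 9.30, 23.6, 46.4 and 25.8 CPM in SVZ saline and 12.0, 9.05, 35.9 and 7.42 CPM in SVZ METH. It was also under 10 CPM in the same 3 libraries. The part of these markers was not tested.

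Lower in the SVZ was Col6a1, a chain of beaded-filament type VI collagen (chromosome 20, 12658065 to 12675561, plus strand, rn6), with 5.33, 7.56, 5.63 and 4.15 CPM (log2 difference -1.60 ± 0.57, unadjusted p = 0.0137, FDR 0.105). The NAc samples read 5.43, 3.81, 4.36 and 18.9 CPM, the DG samples 17.2, 57.9, 3.75 and 26.4 CPM, and the CA samples 13.3, 25.2, 32.2 and 25.4 CPM. The DG samples spanned the range of all other regions, and in METH the CA samples (11.8 to 22.5 CPM) were again all above the SVZ samples (3.24 to 7.36 CPM).

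In the CA, 3 of 37 members were higher at an unadjusted p under 0.05, beside 11.1% of all genes, and 9 were lower, beside 14.6%. Higher were Col25a1, Col4a2 and Col6a1. Col25a1 read 74.9, 51.4, 65.5 and 36.6 CPM in the CA samples. The DG samples read 44.8, 22.1, 38.8 and 30.6 CPM, the SVZ samples 40.5, 52.4, 58.8 and 38.8 CPM, and the NAc samples 25.6, 31.4, 29.8 and 28.7 CPM. All CA samples were above all NAc samples, while they overlapped with the DG and SVZ (log2 difference 0.66 ± 0.18, FDR 0.0427). In order of their means the regions were CA, SVZ, DG and NAc, and the neighbours in this order overlapped. Among METH samples the means were 28.8 RPKM in the DG, 27.5 in the SVZ, 27.2 in the CA and 15.9 in the NAc. Col4a2 had a log2 difference of 0.40 ± 0.14 (FDR 0.0891).

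Lower in the CA were 3 of 10 fibrillar and 3 of 9 FACIT genes tested. The rest were 1 of 3 transmembrane genes, 1 of 1 multiplexin and 1 of 1 in the anchoring fibril group. Col9a2 read 11.4, 10.5, 7.34 and 8.56 CPM (log2 difference -0.57 ± 0.13, FDR 0.0268). Col2a1 read 0.398, 0.461, 0.303 and 0.659 CPM in the CA and 0.699 to 6.16 CPM in the other saline samples (log2 difference -2.30 ± 0.61, FDR 0.0388). The values of 0.659 and 0.699 CPM lay next to each other, where 1 read was worth 0.0460 to 0.0940 CPM. Col11a2 was lower as well (-0.48 ± 0.14, FDR 0.0522). Without CA Sal 2 and DG Sal 4, 12 members had such a p, 3 higher and 9 lower.

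In the NAc, 2 of 37 members were higher at an unadjusted p under 0.05, beside 8.13% of all genes, and 7 were lower, beside 6.92%. Col25a1 was lower by -0.65 ± 0.20 on the log2 scale (FDR 0.210), and Col4a5, the chain of the epithelial type IV network on the X chromosome, by -0.62 ± 0.21 (FDR 0.236). Col18a1 was higher (1.25 ± 0.41, FDR 0.230), but NAc Sal 1 stood at 78.2 CPM and the other NAc saline samples at 10.4, 20.8 and 18.6 CPM. DG saline held 7.36 to 13.8 CPM and CA saline 6.09 to 10.1 CPM of Col18a1. Without NAc Sal 1 its log2 difference was 0.30.

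In the DG, 10 of 37 members were higher at an unadjusted p under 0.05, beside 4.72% of all genes, and 1 (Col11a2) was lower, beside 2.06%. The 10 were Col8a1, the fibrillar genes Col1a1, Col3a1 and Col24a1, the type VI genes Col6a1, Col6a2 and Col6a5, the FACIT genes Col12a1 and Col14a1, and Col13a1. This count rested on DG Sal 4. Without it 3 members had such a p, and the median log2 difference of the members went from 0.30 to -0.02. Without both DG Sal 4 and CA Sal 2 3 had such a p, with Col13a1 (1.77 ± 0.71, unadjusted p = 0.0278) and Col6a1 (1.34 ± 0.58, unadjusted p = 0.0388) higher and Col5a2 (-0.59 ± 0.24, unadjusted p = 0.0271) lower.

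The short-chain gene Col8a1 (chromosome 11, 44877859 to 45007891, plus strand, rn6) was the clearest case of a level carried by few libraries. It read 1.25, 2.80, 0.763 and 191 CPM in DG saline, 1.41, 0.578, 52.4 and 1.01 CPM in DG METH, 0.568, 20.4, 0.667 and 0.659 CPM in CA saline and 0.533, 1.91, 34.5 and 1.08 CPM in SVZ METH. In the other 4 groups it stayed between 0.258 and 3.82 CPM. The 4 high libraries were the 4 with the choroid plexus markers, and Col8a1 was the only 1 of the 41 members that was higher in each of them than in all 28 others. Its order within the 4 differed from that of the markers, since DG Sal 4, with the most Col8a1, had 2343 CPM of markers and SVZ METH 3 had 8687 CPM.

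Its partner Col8a2 read 15.9 CPM in DG Sal 4, 41.8 CPM in DG METH 3, 19.5 CPM in CA Sal 2 and 51.7 CPM in SVZ METH 3. DG METH 1, at 17.6 CPM and with 14.0 CPM of choroid plexus markers, was also high, and the remaining libraries held 0.627 to 8.91 CPM. Of the choroid plexus markers Otx2 was at 0 in 29 of the 32 libraries. The log2 difference of Col8a1 in the DG against the other regions was 4.70 ± 1.12 (FDR 0.269) with all saline samples, 2.92 with the replicate block and -0.25 without DG Sal 4. The part of these cells in the result was not tested.

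**Figure D4:**
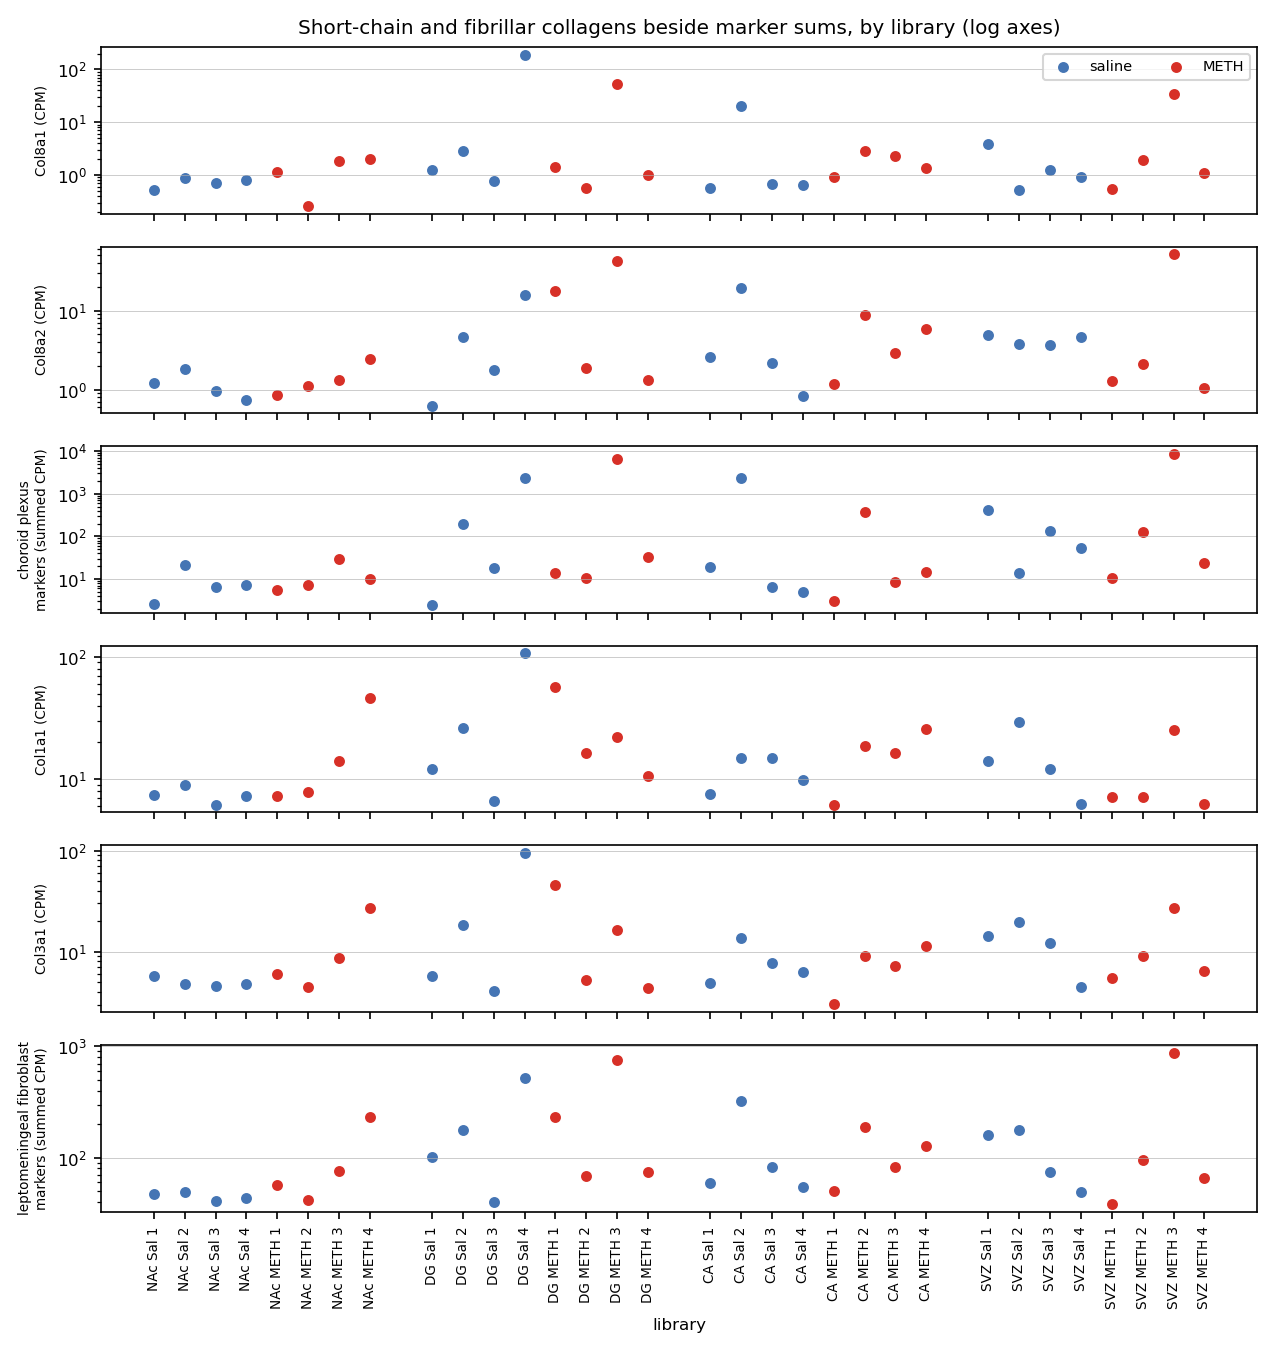
Col8a1, Col8a2, Col1a1 and Col3a1 (CPM) with the summed CPM of choroid plexus and leptomeningeal fibroblast markers in each of the 32 libraries, on log axes. Col8a1 and the choroid plexus markers are highest in DG Sal 4, DG METH 3, CA Sal 2 and SVZ METH 3, and Col1a1 and Col3a1 in DG Sal 4 (107 and 94.7 CPM) and DG METH 1 (56.7 and 45.3 CPM).

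Col1a1 and Col3a1 moved together across libraries without being confined to the choroid plexus-rich ones. Among the 8 highest libraries of each, 7 were shared, and the RPKM ratio of Col1a1 to Col3a1 lay between 0.641 and 2.60 with a median of 1.23. DG METH 1 and NAc METH 4, the next highest for Col1a1, had choroid plexus marker sums of 14.0 and 10.0 CPM. Col12a1 and Col14a1 were also highest in DG Sal 4, at 46.0 and 19.9 CPM.

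The type IV pairs, of which the first starts are printed above, kept different proportions. The RPKM ratio of Col4a1 to Col4a2 lay between 0.436 and 0.876 (median 0.620) over the 32 libraries. That of Col4a3 to Col4a4, chains known from the kidney glomerulus, lay between 0.309 and 0.809 (median 0.487). That of Col4a5 to Col4a6, on opposite strands of the X chromosome, ranged from 2.20 to 25.5 (median 6.20). The ratios came from the same libraries and carry no test. They also rest on the rn6 gene models used for counting, whose starts lie farther apart than in GRCr8 for the first pair. There Col4a2 starts at 83438561 and Col4a1 at 83522162, and Col4a6 starts at 112473822 and Col4a5 at 112769645. Whether these models are complete was not tested.

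Col4a3 and Col4a4 were high together in 3 libraries. DG Sal 4 held 13.2 CPM of Col4a3 and 46.0 CPM of Col4a4. SVZ Sal 1 held 9.58 and 43.6 CPM, and SVZ METH 2 held 9.36 and 38.3 CPM. In the other 29 libraries Col4a3 was at most 6.34 CPM and Col4a4 at most 20.4 CPM. These 3 libraries are not the ones with most Col4a2, which were CA Sal 1 and DG METH 4 at 68.2 and 67.2 CPM.

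**Figure D5:**
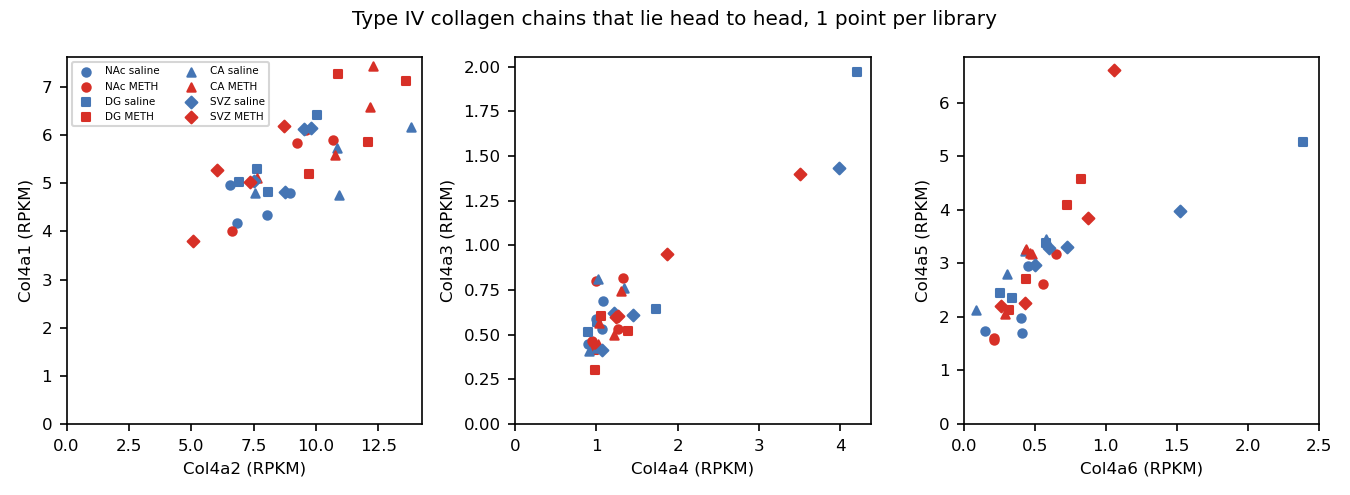
RPKM of the 3 type IV collagen pairs, with 1 point per library, region by symbol and treatment by colour. Col4a1 and Col4a2 spread over all libraries (ratio 0.436 to 0.876), whereas Col4a3 and Col4a4 are high in 3 libraries, DG saline and SVZ saline and METH.

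The genes that make, bind and degrade collagen were read in the same fits. Of the collagen processing genes, which hydroxylate, fold, trim and cross-link the chains, 28 were tested in the average over regions, and 6 were higher in METH at an unadjusted p under 0.05 and 0 lower, beside the 4.29% and 3.54% of all genes given above. Their median log2 fold change was 0.16, against 0.01 over all genes. The lowest p belonged to Fkbp10, a prolyl isomerase of the endoplasmic reticulum that aids cross-linking (0.29 ± 0.08, unadjusted p = 0.00110, FDR 0.484), and to Serpinh1, the collagen chaperone HSP47 (0.39 ± 0.11, unadjusted p = 0.00147, FDR 0.484). By region, 4 of 27 in the NAc, 4 of 26 in the DG, 3 of 26 in the CA and 2 of 28 in the SVZ were higher, and 0 were lower in each, beside 2.42%, 6.35%, 4.37% and 1.19% of all genes that were higher. None of them had an FDR under 0.01. In the average, 4 of 9 astrocyte and 4 of 9 microglia markers were also higher at an unadjusted p under 0.05 and 0 lower, with lowest FDRs of 0.143 and 0.155, and their part was not tested.

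The lists for turnover, receptors and partners were read in the same way. Among turnover genes (metalloproteases, cathepsins and their inhibitors) 2 of 13 were higher in METH on average, led by Timp1, an inhibitor of metalloproteases (0.60 ± 0.22, unadjusted p = 0.0119, FDR 0.544). Of 10 receptors (integrins, Ddr1, Ddr2 and others) 0 were higher or lower, as were 0 of 15 basement membrane partners and 0 of 5 collagen-binding proteoglycans. In the CA, beside 4.37% of all genes, 4 of 13 turnover genes and 5 of 15 basement membrane partners were higher and 0 lower, the partners led by Lama1, a laminin chain (0.85 ± 0.24, unadjusted p = 0.00676, FDR 0.669). In the same comparison 4 of 10 endothelial and 3 of 12 leptomeningeal fibroblast markers were higher, whose part was not tested. In the NAc 2 of 11 turnover genes and 2 of 15 partners were higher and 0 lower, beside 2.42% of all genes higher. In the DG 0 of either list were higher, and 1 of 12 turnover genes and 2 of 15 partners were lower, beside 6.42%. In the SVZ 0 of either list were higher, and 0 of 11 turnover genes and 1 of 15 partners were lower, beside 1.39%.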

How the data were processed

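RNA-seq of 32 rat brain samples was used. Per the submitters' processing notes, reads were trimmed with cutadapt 2.7, checked with FastQC 0.11.4 and aligned to rn6 with STAR 2.5.2b. Per the file headers, the deposited values are counts per gene made by the authors with featureCounts 1.6.3 (read pairs, mapping quality of 10 or more, no strand setting) on an Ensembl annotation, while the study's methods name a UCSC one. Without strand, reads of overlapping genes on opposite strands cannot be told apart. Total counts ran from 11094002 to 21869773.

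From these counts, edgeR 4.0.16 (quasi-likelihood test, upper-quartile scaling, its filter on low counts, Benjamini-Hochberg FDR) was fitted on all genes. METH was compared with saline within each region (8 samples), and the regions within saline (16 samples). The average METH effect and its difference among regions used all 32. CPM use the upper-quartile library size, and RPKM divide CPM by gene length in kilobases. All p are two-sided, and SE come from the fit. On simulated counts with large changes and the same spread for every gene, the fits recovered most of the changed genes. Differences in cell makeup between libraries were left out of the simulation, so it does not measure the power of these comparisons. Alternatives were TMM, DESeq2 1.42.0, no filter, the replicate number as a block, RNA integrity, sequencing run, 2 RUVr factors, 1 fit of all samples, summed SVZ libraries and leaving out libraries. Leaving out the choroid plexus-rich or crossed-number libraries was chosen after seeing the data. No pair of samples within a group agreed within sampling noise (48 pairs).

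The members and lists were chosen with earlier results of these data known. Members named in full were those leading a family in RPKM or among the 3 with the lowest p in a METH comparison (16 genes), and the others (such as Col3a1, Col4a1, Col4a3, Col4a4, Col8a2, Col11a1 and Col16a1) were chosen after their values were seen. Replicate numbers did not pair saline with METH, as same-numbered samples deviated from their group means with correlations of -0.769 to 0.410. Of the pairs of saline regions, only the NAc and CA had all same-numbered samples above 0.1 (0.125 to 0.268).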

Additional observations from a re-analysis of the deposited data

Results flagged for a closer look

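In 19 of the 128 groups of 4 samples examined for the 16 named genes (14.8%), the highest sample stood apart from the other 3, by a gap to the next sample that exceeded Dixon's critical share of the group's range. The nominal rate of about 1 in 20 groups holds for normally spread values. These were linear CPM of genes picked by level or lowest p, and all flags were on the high side. The share can therefore not be set against that rate. The choroid plexus-rich libraries held Col8a1 at 191 CPM (DG Sal 4), 52.4 CPM (DG METH 3), 20.4 CPM (CA Sal 2) and 34.5 CPM (SVZ METH 3). SVZ METH 3 also stood apart for Col18a1 (35.9 CPM) and Col1a1 (25.4 CPM).

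NAc METH 3, the NAc library with the lowest striatal marker sum (288 CPM), stood apart for Col2a1 (12.0 CPM), Col5a3 (55.5 CPM) and Col9a3 (16.2 CPM). SVZ Sal 1 stood apart for Col24a1 (2.55 CPM) and Col2a1 (2.88 CPM), and SVZ METH 2 for Col24a1 (4.24 CPM). The part of cell makeup in these values was not tested.

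The remaining cases were single genes. They were Col12a1 in NAc METH 4 (26.3 CPM), Col18a1 in NAc Sal 1 (78.2 CPM), Col6a1 in NAc Sal 4 (18.9 CPM), Col13a1 in DG Sal 2 (6.73 CPM), Col9a1 in DG Sal 3 (4.45 CPM), Col24a1 in CA Sal 4 (6.42 CPM) and Col9a3 in CA METH 1 (8.19 CPM).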

How the results depend on the processing

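The number of collagen genes called was 0 under every alternative run in every comparison, so the counts here are of members with an unadjusted p under 0.05. For the NAc the 4 became 8 with RNA integrity as a covariate, 1 with sequencing run and 2 in 1 fit of all 32 samples. In the DG the 2 became 7 with DESeq2, 5 with no filter, 6 with RNA integrity and 6 with 2 RUVr factors. They became 10 in 1 fit of all 32 samples and 5 without the crossed-number libraries. With sequencing run the DG effect rests on 1 saline library, so no count is given. The counts need not hold the same genes. Without the crossed-number libraries the 5 were Col4a1, Col4a2, Col5a3, Col9a1 and Col14a1, and Col24a1 was not among them. In the CA the 3 became 6 with RUVr, 5 with sequencing run and 1 in the fit of all 32. In the SVZ the 3 became 1 with RNA integrity, 8 with RUVr, 1 with the METH libraries of a number summed and 1 in the fit of all 32. Without the choroid plexus-rich libraries DG saline went from 11 to 3, SVZ saline from 9 to 14 and the interaction from 3 to 7, which was 5 with no filter. The causes were not tested.

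The replicate numbers did not pair saline with METH. With the replicate block the count was 4 in the DG, 0 in the SVZ and 1 for the average, against 2, 3 and 2. Among saline regions, where the NAc and CA samples of a number correlated by 0.125 to 0.268, it was 8 in the NAc, 8 in the DG, 13 in the CA and 9 in the SVZ, against 9, 11, 12 and 9. The block changed no call.

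Leaving out 1 library gave 1 to 7 in the NAc (1 without Sal 1 or Sal 3, 7 without METH 2), 1 to 7 in the DG (1 without METH 1 or METH 4, 7 without Sal 1), 1 to 7 in the CA (1 without METH 3 or METH 4, 7 without Sal 2 or METH 1) and 0 to 7 in the SVZ (0 without Sal 4, 7 without Sal 1). Among saline regions it gave 4 to 10 in the NAc (4 without NAc Sal 2) and 3 to 16 in the DG (3 without DG Sal 4). It gave 1 to 4 for the average (4 without NAc METH 2 or CA METH 1) and 2 to 8 for the interaction (8 without DG Sal 1).

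With the sequencing run as a factor the sign changed for 15 of 34 members in the NAc, 15 of 36 in the DG and 6 of 35 in the CA. In the NAc that fit rests on Sal 3 and 4 and METH 1 and 2, and in the DG on Sal 3 and METH 1 and 2. Among the members leading the DG comparison, log2 fold changes with sequencing run were 0.36 for Col24a1 and 0.42 for Col13a1, and Col13a1 was 0.0086 without the crossed-number libraries. Col8a1 in DG saline ranged from -0.25 without DG Sal 4 to 5.11 without DG Sal 3. With DESeq2, Col9a2, Col2a1 and Col25a1 in the CA and Col11a2 and Col9a2 in the SVZ had an FDR under 0.01, none of them more than 2-fold higher. Members of a few CPM rest on few reads, since 1 read was worth 0.0460 to 0.0940 CPM.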
